A study of Saccharomyces cerevisiae with 10 samples.

Results

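The regions described here are narrow stretches of open chromatin at which no binding of the origin recognition complex (ORC) was called in budding yeast. They were found by merging the peaks of the 2 ATAC-seq lists wherever peaks overlapped or touched. A merged region was kept when it was under 500 bp wide, held a peak of both ATAC-seq lists, and overlapped no line of the ORC ChIP-seq list of either strain. The regions were thus chosen by measured values, namely which ATAC-seq and ORC peaks were called and how wide the open region was. By this rule 506 of 2716 merged regions were chosen (18.6%), and together they covered 161 kb.

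ORC ChIP-seq and ATAC-seq were carried out in WT and Orc4-IHΔ cells of the W303-1a background, giving 1 peak list per strain and assay, 4 lists in all. In all 4 groups the endogenous ORC4 gene was placed under the GALS promoter (GALS-ORC4-kanMX4), which is shut off in the glucose medium (YPD) used for the experiments, and Orc6 carried a MYC tag (ORC6-MYC-hphNT1). The WT strain then relied on a copy of ORC4 integrated at ura3-1 under the native promoter, and the mutant on orc4-IHΔ at the same place, which lacks the insertion helix of Orc4. All groups were MATa and carried ade2-1, trp1-1, can1-100, leu2-3,112 and his3-11,15. Benomyl, which blocks microtubules, was given at 20 µg/ml for about 3 h to hold the cells in G2/M. How much endogenous Orc4 remained is not measured in these lists.

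ORC binds replication origins and, with Cdc6 and Cdt1, brings the MCM helicase onto DNA. In S. cerevisiae it recognises a T-rich consensus sequence in origins, and the insertion helix of Orc4 reads bases of that sequence in the major groove. ATAC-seq uses a transposase that cuts DNA between and outside nucleosomes, so its peaks mark promoters, gene ends and other nucleosome-depleted places. Many such places are not known as origins.

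Several properties of the lists bear on every result below. For ATAC-seq, the strain in the sample label is the opposite of the strain in the name of the list. The labels were followed here, in the terms WT-labelled list and Orc4-IHΔ-labelled list, and any direction between these lists is uncertain. The number of peaks that the study gives for each strain goes with the names of the lists and not with the labels, so every direction between the ATAC-seq lists given here may have to be exchanged. Each ATAC-seq list comes from 1 library and each ORC list combines 2, so there is no replicate spread and no test between strains was made. The number of reads is unknown from the lists. A region without a listed ORC peak is therefore one at which no peak was listed, not one shown to be free of ORC. The names of the ORC lists read as if peaks at RNA genes had been removed, and a region at such a gene could enter the set for that reason alone. Coordinates are those of the lists, counted from 1, in build sacCer2, which the submitters' processing notes name. Genes and bases at the regions were not analysed here, since no genome or annotation of that build was used. Percentages carry 95% Wilson intervals, which cover counting error only, and regions are not replicates.

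Of the 2101 merged regions held by both ATAC-seq lists, 901 were under 500 bp wide, and 506 of these (56.2%, interval 52.9% to 59.4%) overlapped no ORC line. Over all regions held by both lists, wide ones included, 41.2% had no ORC line. Among the 1200 wider regions, 359 had none (29.9%, interval 27.4% to 32.6%). These shares follow from the rule and are given as a description. The ORC lists contributed very unequally to them. A mutant ORC line lay in 385 of the 901 narrow regions (42.7%) and a WT line in 45 (4.99%), of which 35 held both. With the WT list alone, 856 narrow regions would have been without ORC, and with the mutant list alone 516. Membership among narrow regions was thus set almost entirely by the mutant list.

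The limit of 500 bp did not fall at a natural break in width. The 2 widest regions inside it measured 499 bp each. The first lies at chrVIII:226999-227497, with fold enrichments of 4.42 in the WT-labelled list and 4.76 in the Orc4-IHΔ-labelled list. The other, at chrXV:1084100-1084598, had values of 9.62 and 8.28. Just outside were regions of 502 bp at chrXVI:730198-730699 (2.52 and 3.17) and of 503 bp at chrIX:320928-321430 (2.64 and 3.79). The values just inside the limit were in these 4 cases higher than those just outside it. Over whole width classes without ORC it was the other way. From 450 to 499 bp the medians were 3.10 in the WT-labelled list and 2.95 in the Orc4-IHΔ-labelled list. From 500 to 599 bp they were 3.54 and 3.28. Fold enrichment is the linear ratio of cut-site signal to background that the authors' peak caller gave for each peak, and is not taken here as a mean over the region.

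Widths of the regions ran from 151 to 499 bp, with a median of 314 bp and quartiles of 222 and 412 bp. They were not spread evenly over this range. The class from 200 to 249 bp alone held 123 of the 506 regions, against 55 from 250 to 299 bp and 48 from 300 to 349 bp, and numbers rose again to 80 from 400 to 449 bp. Narrow regions with an ORC line did not drop in number after the class from 200 to 249 bp. The next class held more of them than this one, which held 59. The share without ORC was accordingly highest from 200 to 249 bp, at 67.6% (interval 60.5% to 74.0%). Among the narrow classes it was lowest in the next, at 44.4% (interval 35.9% to 53.1%). From 350 bp up to the limit it lay between 54.2% and 57.6%. Past the limit it fell steadily, from 48.4% at 500 to 599 bp to 10.5% at 1500 bp and over.

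**Figure D1:**
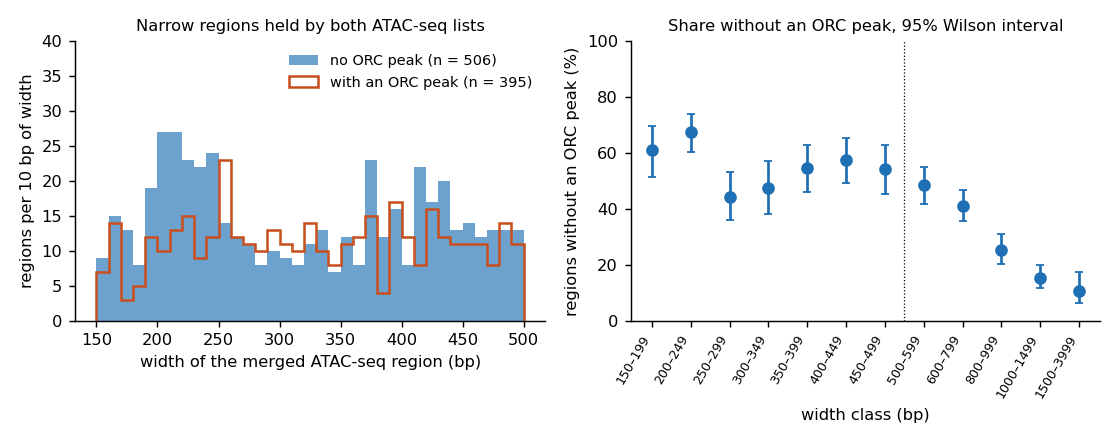
Left, number of narrow regions held by both ATAC-seq lists per 10 bp of width, for the 506 without an ORC peak (filled) and the 395 with one (outline). Right, percent of regions without an ORC peak in each width class, with 95% Wilson intervals and a dotted line at the width limit. The class from 200 to 249 bp stands at 67.6% and the widest class at 10.5%.

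The narrowest regions were close to the smallest width that the ATAC-seq lists hold, 150 bp. They lie at chrIV:312688-312838 (151 bp), chrXIII:676896-677047 (152 bp) and chrXVI:581336-581489 (154 bp). Their fold enrichments in the WT-labelled list were 2.12, 2.11 and 1.86, and in the Orc4-IHΔ-labelled list 2.42, 2.04 and 1.94. The summits of both lists fell within 9 bp of each other in each of the 3. Every listed peak is at least 150 bp wide, so in regions this narrow the peaks of both lists had to cover nearly the same bases. Agreement between the libraries in these 3 thus follows in part from the rule.

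The openness of the regions was modest. In the WT-labelled list their median fold enrichment was 2.55, with quartiles of 2.14 and 3.15, and in the Orc4-IHΔ-labelled list it was 2.63, with quartiles of 2.22 and 3.17. Narrow regions with an ORC line had nearly the same medians, 2.62 and 2.68. Wide regions without ORC had 4.12 and 3.87, and wide regions with ORC 5.61 and 5.65. Fold enrichment therefore went with width and hardly with the presence of an ORC line among narrow regions. When the 901 narrow regions were ranked by the lower of their 2 values and split into 5 equal groups, the share without ORC was 60.2% in the lowest group and 53.3% in the highest. The groups between had 53.9%, 59.4% and 53.9%, with no steady order, and the intervals of all 5 overlapped. Fold enrichment comes from the same peak calls that chose the regions, so no test was made.

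By q value, weak calls were few. The −log10 q value was at least 5 in both lists for 476 of the 506 regions, and 39 regions had a fold enrichment under 2 in both. The lower of the 2 values had a lower quartile of 2.01. More regions than these 39 thus had a value near or under 2 in at least 1 list. The lowest region by the lower of its values, at chrVII:877462-877691, had fold enrichments of 1.45 and 1.70 in the WT-labelled and Orc4-IHΔ-labelled lists. Next were chrII:246002-246266, with 2.07 and 1.45, and chrVI:105297-105610, with 1.46 and 1.60. At the second of these the summits of the lists lay 102 bp apart.

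At the other end, 13 regions had a fold enrichment of at least 5 in both lists. Such values were less rare over all regions held by both lists. There the upper quartile of the lower of the 2 values was 5.16, against 2.88 for the narrow regions without ORC. The highest of the 13 by far, at chrXII:1-436, begins at the first base of the chromosome. It had values of 20.5 in the WT-labelled list and 14.0 in the Orc4-IHΔ-labelled list. Its summit was the same base, position 150, in both lists. The nearest ORC line, a mutant one, lay 10988 bp away. The next regions were chrI:206187-206607 (9.03 and 8.58), chrXV:1084100-1084598 (9.62 and 8.28), chrXV:901211-901657 (8.20 and 7.57) and chrXIII:124190-124668 (6.67 and 6.90). In each of these 4 the summits of the lists were at most 6 bp apart. High ATAC-seq fold enrichment without a listed ORC peak was thus found both near chromosome ends and well inside the arms, but not evenly. Within 10 kb of an outermost listed position there were 15 of the narrow regions without ORC, and 3 of these 15 were among the 13. The region at chrXV:901211-901657 had a WT ORC line only 672 bp away, and the region on chromosome I had none of either list within 13583 bp.

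The ATAC-seq lists gave similar values for most regions. Across the 506 regions, log2 fold enrichment in the lists correlated with Pearson's r of 0.78 and Spearman's rho of 0.71, against 0.91 and 0.88 over all 2101 regions held by both lists. Without the highest 10% of the regions Pearson's r was 0.59 over 455 regions. The regions share their libraries, and these values are descriptions. The median log2 difference, the Orc4-IHΔ-labelled list minus the WT-labelled list, was 0.06 with an SD of 0.29, and 298 of 506 regions (58.9%, interval 54.6% to 63.1%) were higher in the Orc4-IHΔ-labelled list. Over all regions in both lists the median was 0.02 with an SD of 0.32, and the share 53.1% (interval 50.9% to 55.2%). The lower correlation of the 506 regions thus did not come with a wider spread of differences. Their fold enrichments covered a smaller range, with quartiles of 2.14 and 3.15 in the WT-labelled list against 2.55 and 5.70 over all regions.

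A gap of 1.5 times or more between the lists was taken as a large difference. It was reached by 17 regions in favour of the WT-labelled list (3.36%, interval 2.11% to 5.31%) and by 5 in favour of the Orc4-IHΔ-labelled list (0.988%, interval 0.423% to 2.29%). Over all regions held by both lists the same limit was passed by 5.43% and 2.00%. Wide regions without ORC passed it in favour of the WT-labelled list in 59 of 359 cases (16.4%, interval 13.0% to 20.6%). Narrow regions with ORC passed it in 2.78% and 2.28% of cases and wide regions with ORC in 3.21% and 2.38%, so only the wide regions without ORC had a raised share, in favour of the WT-labelled list. The balance between the lists depended on the limit: at a lower one, 59 of the 506 regions were in favour of the WT-labelled list and 68 in favour of the other. None of the narrow regions without ORC differed by 2 times or more, which allows a share of up to 0.753% in each direction. Over all regions held by both lists the shares at 2 times were 0.904% in favour of the WT-labelled list and 0.190% in favour of the other. The rule required a call in both lists, and the lowest fold enrichment among the regions was 1.45 in each. With medians of 2.55 and 2.63, many regions could not differ by 2 times and still be called in both. The low count thus follows in part from the rule.

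**Figure D2:**
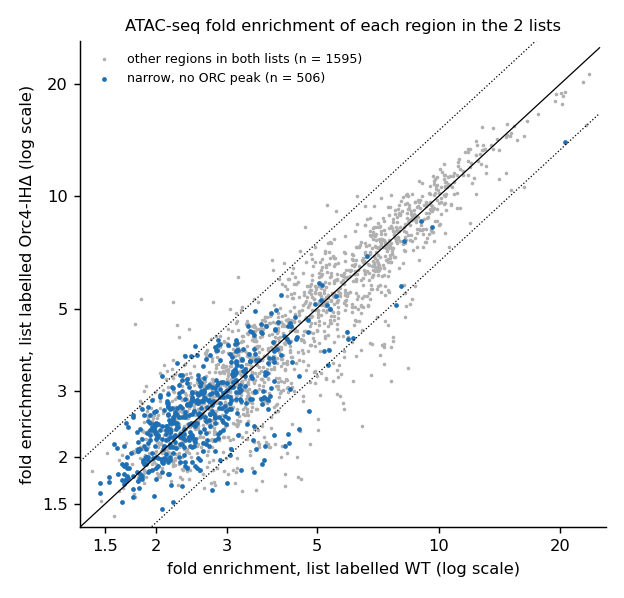
ATAC-seq fold enrichment of each region in the WT-labelled list and in the Orc4-IHΔ-labelled list, both on log axes, for the 506 narrow regions without an ORC peak and the 1595 other regions held by both lists. The solid line marks equal values and the dotted lines 1.5 times. The narrow regions cluster at low values around medians of 2.55 and 2.63, and the highest of them had 20.5 and 14.0.

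The region that was most in favour of the WT-labelled list, at chrXI:458142-458633, had a fold enrichment of 4.25 there and 2.18 in the other list, a ratio of 1.95. It was followed by chrXV:1091072-1091360 (4.17 and 2.15), which ends at the last listed position of its chromosome, and chrII:311460-311854 (3.49 and 1.82). In favour of the Orc4-IHΔ-labelled list were chrIX:193226-193623 (2.07 and 3.29), chrX:587424-587863 (2.50 and 3.96) and chrXIII:793486-793864 (2.25 and 3.57), with ratios of 1.59, 1.59 and 1.58. All 6 were called in both lists with unequal strength. The summits of the lists lay 77 bp apart in the region on chromosome II, 40 bp apart in that on chromosome XIII and at most 6 bp apart in the other 4. The width of the call followed the strength: the 17 regions higher in the WT-labelled list had peaks with a median width of 440 bp there and 235 bp in the other list. In the 5 higher in the Orc4-IHΔ-labelled list the medians were 198 bp in the WT-labelled list and 440 bp in the other. The ORC lines nearest to the first and to the fourth of the regions named here were WT lines, 775 and 3314 bp away.

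Positions were also compared between the lists. The summit is the base at which the peak caller placed the highest signal. The summits of the lists were a median of 8 bp apart, with quartiles of 2 and 21 bp and a largest distance of 289 bp. They lay within 25 bp in 390 of 506 regions (77.1%, interval 73.2% to 80.5%) and at the same base in 53. For narrow regions with an ORC line the share within 25 bp was 75.4% (interval 71.0% to 79.4%), so the intervals overlapped. All but 4 regions consisted of 1 peak in each list, and those 4 had 2 peaks in the WT-labelled list. The peaks of the lists shared a median of 84.2% of their joint length, and more than 50% in 455 regions. Summits lay at a median of 49.4% of the width from the left edge in both lists. Left and right are arbitrary for these regions, so this median alone cannot show how central the summits were. The quartiles were 37.9% and 61.6% in the WT-labelled list and 38.9% and 62.2% in the Orc4-IHΔ-labelled list. Most regions were thus found at nearly the same place by both libraries, with the exception of those past these limits. The rule bounds these distances, since peaks of both lists had to overlap or touch within a region under 500 bp.

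The regions were next placed relative to ORC lines outside them. The rule requires only that this gap is above 0. The nearest mutant ORC line lay a median of 2644 bp away, with quartiles of 1392 and 4910 bp, and the nearest WT line 8570 bp away, with quartiles of 3760 and 16371 bp. The mutant line was the nearer in 408 of 506 regions (80.6%). The mutant list holds more lines, 2219 against 618, and whether the shorter distance goes beyond that difference in number was not tested. Over all regions held by both lists the mutant line was the nearer in 77.1%. Taking either list, the median gap was 2393 bp.

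Few regions lay close beside an ORC line. A mutant line lay within 300 bp of 25 regions (4.94%, interval 3.37% to 7.19%) and a WT line within 300 bp of 7 (1.38%, interval 0.672% to 2.83%). Over all regions held by both lists the shares with a separate line that close were 6.95% and 4.43%, and for narrow regions with ORC 7.59% (interval 5.37% to 10.6%) and 5.32% (interval 3.50% to 7.99%). At this distance the intervals of narrow regions with and without ORC overlapped for mutant lines and not for WT lines. Within 1 kb there was a mutant line at 81 regions (16.0%, interval 13.1% to 19.5%). Narrow regions that did hold an ORC line had a further, separate mutant line within 1 kb in 131 of 395 cases (33.2%, interval 28.7% to 38.0%). Their median gap to the nearest further line of either list was 1403 bp. In all these comparisons another piece of the same named ORC peak counted as a separate line. There were 79 gaps between such pieces in the mutant list and 31 in the WT list. These pieces can shorten the gap for regions that hold ORC, and they were not set aside. With lines counted in this way, the regions without ORC lay farther from other ORC lines than narrow regions with ORC did, in these lists. For the wide regions without ORC the median gap was 2038 bp and the share with a mutant line within 1 kb 18.4%. Wide regions with ORC had 1495 bp and 31.3%. Greater distance to mutant lines was thus common to both kinds of region without ORC. The median gap to WT lines did not show this among wide regions, at 6847 bp without ORC and 6641.5 bp with it. No test was made, since neighbouring regions share their ORC lines.

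**Figure D3:**
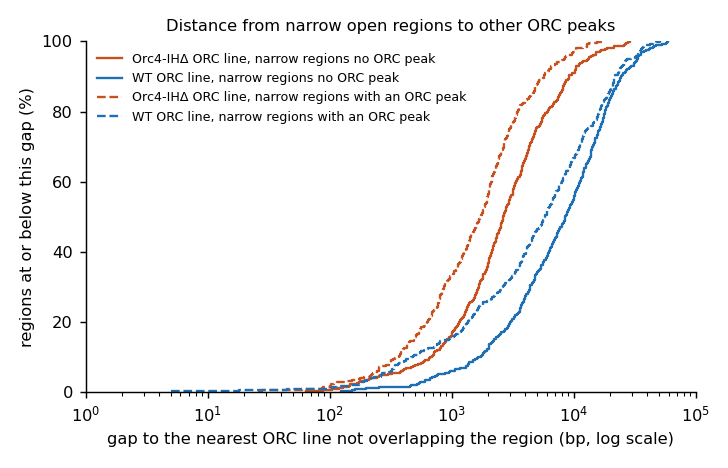
Percent of narrow regions whose gap to the nearest ORC line that does not overlap them is at or below the value on the x axis (bp, log scale), for mutant lines and WT lines and for regions without (solid) and with (dashed) an ORC peak. The solid curves lie to the right of the dashed ones, with medians of 2644 and 8570 bp against 1722 and 5803 bp. Pieces of the same named ORC peak count as separate lines.

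The 3 regions nearest to an ORC line were all next to a mutant line. At chrVII:491604-491899 the line began 64 bp past the end of the region and had an ORC fold enrichment of 2.95. At chrIX:243333-243688 it began 77 bp past the end (2.50), and a WT line lay 378 bp away. At chrXVI:451566-451781 it ended 88 bp before the start (3.84). All 3 were weakly open, with ATAC-seq fold enrichments from 1.64 to 1.82 over both lists.

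At the far end, 45 regions (8.89%, interval 6.71% to 11.7%) lay over 10 kb from any mutant line. Of narrow regions with ORC, 3.04% (interval 1.75% to 5.23%) had no further mutant line within 10 kb, with pieces of the same peak counted as further lines. Over all regions held by both lists the share was 5.71%. Wide regions without ORC had 9.47% (interval 6.86% to 12.9%), so such distances were not particular to the narrow ones. Of the narrow regions without ORC, the farthest from any ORC line was chrI:220207-220460, 27603 bp from a mutant line and 59966 bp from a WT line. It had fold enrichments of 3.54 and 3.64 in the WT-labelled and Orc4-IHΔ-labelled lists, and no peak of any list lay beyond it on its chromosome. The next were chrII:647176-647454, 23948 bp from a WT line (2.73 and 2.61), and chrXIV:781302-781671, 21812 bp from a mutant line (3.18 and 3.87). The first and the third of these lay at or within 2452 bp of the last listed position of their chromosome, and the second lay 161384 bp from it.

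Regions without ORC often had neighbours without ORC. For each region the nearest other region held by both ATAC-seq lists was looked up, at a median gap of 1917 bp. It held no ORC line in 245 of 506 cases (48.4%, interval 44.1% to 52.8%). The same was true of 114 of 395 narrow regions with ORC (28.9%, interval 24.6% to 33.5%) and of 40.5% of all regions held by both lists. Wide regions without ORC had the same trait, in 180 of 359 cases (50.1%, interval 45.0% to 55.3%), so it was not particular to the narrow ones. The ORC state of the neighbour is not part of the rule, but neighbours count for each other and no test was made.

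The 506 regions fell into 376 intervals between successive ORC lines of the combined lists. In 287 of these a region was alone, 64 held 2 and 16 held 3. The fullest, singled out after its count was seen, lay on chromosome IX from 256123 to 291736. In its 35614 bp no ORC line of either strain was listed, while it held 8 of the narrow regions and a single wide region of 1685 bp. The wide region was the most open, with fold enrichments of 6.96 and 6.45, and the narrow ones ranged from 1.80 to 3.81 in the WT-labelled list and from 2.19 to 3.69 in the Orc4-IHΔ-labelled list. Open chromatin in this stretch was thus present in both lists, without a listed ORC peak over more than 35 kb. Between the lines that flank it, 1 running number of the WT peak names and 3 of the mutant peak names are missing, and the called peaks they belong to were not placed.

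The regions were found on all 16 nuclear chromosomes and not on the 2-micron plasmid. Chromosome IV held the most, 77, and chromosome I the fewest, 7. Per 100 kb, with length taken as the largest listed position, the density was 4.21 overall and ran from 2.98 on chromosome V to 5.10 on chromosome XI. The same chromosomes were extreme in the share of narrow regions that had no ORC line. On chromosome XI 34 of 48 had none (70.8%, interval 56.8% to 81.8%), and on chromosome V 17 of 44 (38.6%, interval 25.7% to 53.4%). Chromosome VII was close to chromosome XI, with 51 of 73 (69.9%). The intervals of chromosomes V and XI did not overlap, a pair picked as the extremes of 16, and those of most others did. Within 10 kb of an outermost listed position there were 15 regions (2.96%), as for all regions held by both lists (2.67%). These 15 had median fold enrichments of 3.18 and 3.31, and 3 of them were among the 13 regions of at least 5.

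**Figure D4:**
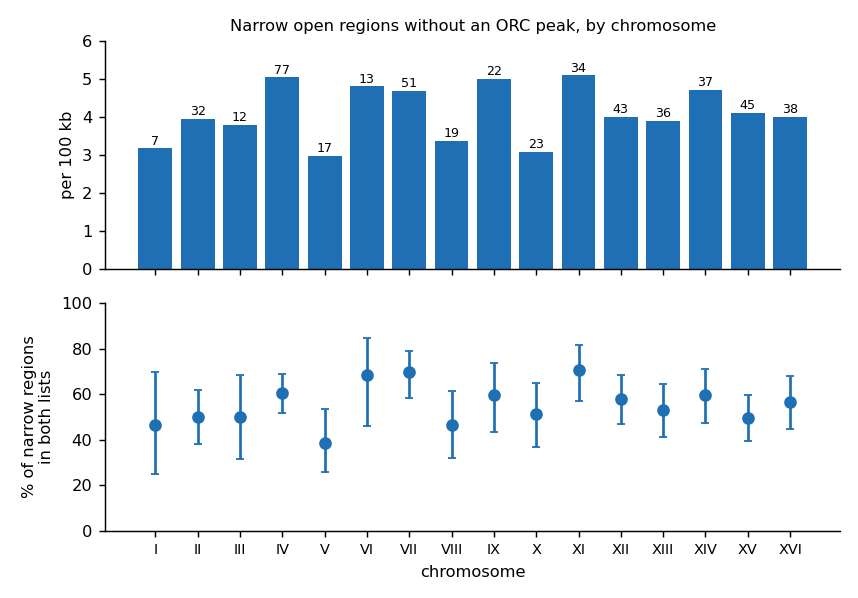
Top, narrow open regions without an ORC peak per 100 kb on each chromosome, with their number above the bar. Bottom, their share of all narrow regions held by both ATAC-seq lists, with 95% Wilson intervals. Density ran from 2.98 (V) to 5.10 (XI) and the share from 38.6% (V) to 70.8% (XI).

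The numbers in the ORC peak names were used to ask how often a called ORC peak could have been left out near a region. In each list the names carry a running number that rises along every chromosome and comes from 1 of the libraries. The highest number was 1027 in the WT list, which holds 587 distinct numbers, and 3084 in the mutant list, which holds 2140. Thus 440 WT and 944 mutant numbers were absent from the lists. If the numbering ran without gaps, that call held no further peak between listed lines with consecutive numbers.

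For the mutant list, 490 of the regions lay between listed lines of the same chromosome, and in 124 of these no number was missing between them. A single number was missing around 177 regions, 2 around 96 and 3 or more around 93. For the WT list, 487 regions lay between listed lines, of which 120 had no missing number, 161 had 1 missing, 100 had 2 and 106 had 3 or more. A missing number can belong to a peak anywhere between the flanking lines, and was not placed. These lines were a median of 11615 bp apart for mutant ORC and 42516 bp apart for WT ORC. For 52 regions no number was missing in either list. They had a median width of 258 bp and median fold enrichments of 2.48 and 2.59, against 317 bp, 2.55 and 2.64 for the other 454. Their median gap to the nearest ORC line was 1706 bp, against 2511 bp. Fold enrichments were thus close, while these 52 were narrower and nearer to a listed line. Flanking lines with no missing number were closer together, a median of 7882.5 bp against 13035 bp for mutant ORC. For WT ORC these medians were 34908 and 47387 bp. The smaller gap thus follows in part from how the 52 were chosen. Missing numbers were not compared with those around other open regions. Whether the numbering ran without gaps, and what the other library of each strain held, was not tested.

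**Figure D5:**
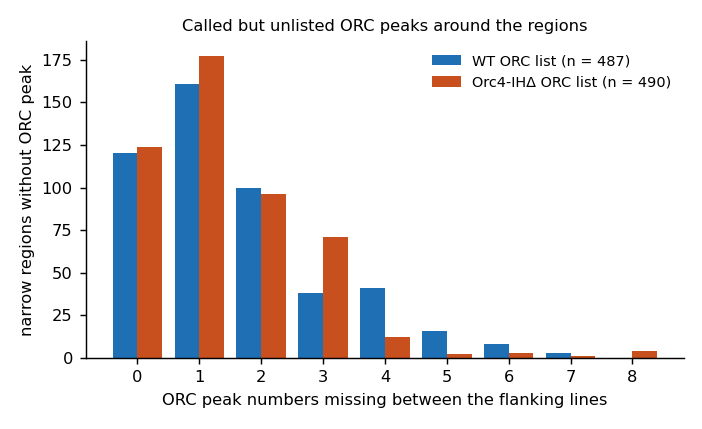
Number of narrow regions without an ORC peak by how many ORC peak numbers were missing between the listed lines on either side, for the WT list (487 regions) and the mutant list (490 regions). No number was missing for 120 and 124 regions.

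Some ORC peaks are listed in pieces. There were 31 gaps between WT lines, and 79 between mutant lines, that carry the same peak name. These gaps had medians of 102 and 126 bp and a smallest size of 76 and 78 bp. None of the 506 regions overlapped such a gap, which for most gaps follows from size, since a region without ORC would have to fit wholly inside and the narrowest measured 151 bp. A listed ORC summit can also lie outside its own line, and in 1 case it fell in a region. The region at chrXVI:560150-560427, with ATAC-seq fold enrichments of 1.97 and 1.98, held the summit at position 560375 of a mutant peak. The listed line of that peak runs from 559850 to 560021 and had an ORC fold enrichment of 4.20. At this place the list thus shows only part of a called ORC peak, whose summit lay in the open region. It is the only region of the 506 at which the lists themselves place an ORC summit.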

How the data were processed

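Peak lists of ORC ChIP-seq and ATAC-seq in WT and Orc4-IHΔ cells were used, 1 per group. The submitters' processing notes name build sacCer2, Picard and MACS2 2.1.1.20160309 for all lists, Bowtie 1.2.2, SAMtools 1.3.1 and bedtools 2.27.1 for ORC, and Bowtie2 2.3.4.1 for ATAC-seq. The deposited fold enrichment is a linear ratio, and −log10 p and −log10 q were likewise given by the authors' peak caller. The score column as deposited was left out. The ATAC-seq names read as cut sites called at p 0.01.

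Each merged region took the highest fold enrichment of its lines in a list. Overlap meant at least 1 bp. Strains were taken from the sample labels. Members, lists and limits were chosen with earlier results of these data known. Named regions are the 5 highest and 3 lowest by the lower value, the 3 narrowest, the 2 on each side of the width limit, the 3 most different in each direction, and the 3 nearest to and farthest from ORC. Merging and overlap were tested on simulated data, where 80 of 80 planted overlaps among 200 regions were found. Alternatives changed the width limit, merging, ORC distance, ORC lists, ATAC-seq threshold, shared overlap and fold limit. Libraries for MCM, BrdU and nucleosomes were not analysed here. The work was done with scipy 1.17.1, pandas 2.3.3, numpy 2.4.6 and matplotlib 3.10.9 under Python 3.11.15.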

Additional observations from a re-analysis of the deposited data

How the results depend on the processing

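Of 85 alternative values over 7 results, 62 stayed within the stated range of the main value (1.5 times for a count, the 95% interval for a share or median) and 23 moved. Most of the moves follow from the alternative's own construction. With the WT ORC list alone there were 856 regions, 95.01% of the narrow ones, a median gap of 7426 bp, and 14 and 27 regions past 1.5 times in favour of the Orc4-IHΔ-labelled and WT-labelled lists, against 5 and 17. With the mutant list alone the gap was 2635 bp. Widths under 400 bp gave medians of 2.39 and 2.47 in the WT-labelled and Orc4-IHΔ-labelled lists, and 2 and 5 regions past 1.5 times in favour of the Orc4-IHΔ-labelled and WT-labelled lists. Widths under 600 bp gave a median of 2.66 in the WT-labelled list, and 9 and 34 such regions. Keeping ORC 300 bp away lowered the share to 52.8%, and an overlap of 50% between the lists left 2 regions higher in the Orc4-IHΔ-labelled list. A lower fold limit gave 68 and 59 regions and so turned the balance between the lists, and a limit of 2 gave 0 and 0. Keeping only regions with no missing ORC peak number, chosen after seeing the data, left 52 regions, 0 and 1 past 1.5 times, and a median gap of 1706 bp. No paired analysis was possible because each strain has 1 list per assay and no test was made. Read depth is not in the lists, so how deep a missing peak was sampled is unknown.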
